A study of Mus musculus with 6 samples.

Results

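The genes of the cytosolic ribosomal proteins were compared between a parental mouse embryonic stem (ES) cell line, w9.5 (genotype WT), and Cl34, a Hira-null (Hira-/-) ES cell clone, with 3 microarrays for each line. HIRA is a chaperone that places the histone variant H3.3 into chromatin outside DNA replication. The members were the probe sets that carry 1 gene symbol in the platform annotation and whose symbol is that of a protein of the small (Rps) or large (Rpl) subunit, with the stalk proteins Rplp0, Rplp1 and Rplp2, the small-subunit protein Rpsa and the retrogene Rpl10l included, and S6 kinases and pseudogene symbols left out. This gave 217 probe sets for 61 genes, 38 of the large and 23 of the small subunit, of 19938 genes with a probe set of 1 symbol. All 217 probe sets passed the filter on low values described with the processing. In the gene table used for names, 60 of these genes were protein coding and Rps4l was listed as a transcribed pseudogene.

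Ribosomal proteins assemble with ribosomal RNA into the 40S and 60S subunits, and every growing cell makes them in large and nearly matched amounts. Their transcripts usually begin with a run of pyrimidines, the TOP motif, through which mTOR signalling and LARP1 control their translation. Several have duplicates, often retrogenes, that are transcribed mainly in particular tissues such as the testis. Gain of a copy of chromosome 8 or 11 is a known change in cultured mouse ES cells, and DNA copy number was not analysed here. The members on chromosomes 8 and 11 are described apart from the rest, a contrast chosen with earlier results of these data known.

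The values were log2 expression values from Affymetrix Mouse Gene 1.0 ST arrays hybridised with total RNA of undifferentiated cells, and a log2 fold change is Hira-null minus WT throughout. The cells of all 6 arrays were grown in serum with ESGRO, and were harvested at different degrees of confluence, which no label ties to an array. The labels number 3 biological replicates per line without saying how they were separated, and the p-values below reflect array-to-array spread that may be technical. The series holds 1 Hira-null clone, so Hira loss and any other difference of this clone from its parent cannot be told apart. Array medians lay between 4.93 and 5.02. All 10 ES cell markers listed passed the filter, with Pou5f1 at 10.91 to 11.58 and Nanog at 10.70 to 11.12 across the arrays. Among markers of other cell types, the median value in WT and Hira-null arrays was 4.90 and 4.70 for fibroblasts or feeders (5 of 8 markers above the filter), 6.88 and 6.07 for endoderm (8 of 8), 5.06 and 5.06 for trophoblast (5 of 6), and 6.48 and 5.66 for neural cells (5 of 5), and the part of such cells in the results was not tested. The probe set of Hira had WT values of 7.49, 7.86 and 7.83 against Hira-null values of 7.40, 7.05 and 6.81 (log2 fold change -0.64, SE 0.19, limma adjusted p = 0.352), and no label names the deleted part of the gene.

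Most ribosomal protein transcripts had nearly the same value in both lines, whereas the 7 on chromosomes 8 and 11 all had lower means in the Hira-null arrays and the retrogene Rpl10l had a higher one. The median log2 fold change was 0.01 over all 61 members, -0.25 (1.19-fold lower) over the 7 on chromosomes 8 and 11 and 0.03 over the 54 on other chromosomes. Of those 54, 49 lay within 0.2 of 0. No member was called by limma at an adjusted p of 0.05, and the lowest adjusted p was 0.204, for Rpl10l. Among the 25142 probe sets tested, 1 was called with a lower Hira-null value (0.00398%) and 0 with a higher one. At an unadjusted p under 0.05 there were 2 members lower, Rpl26 and Rpl27, and 1 higher, Rpl10l, against 6.29% of all 15199 genes lower and 4.17% higher. The arrays of both lines did not overlap for 6 members with lower and 2 with higher Hira-null values, against 9.55% and 7.8% of all genes. Read against these shares, the counts over the whole family do not stand out.

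**Figure D1:**
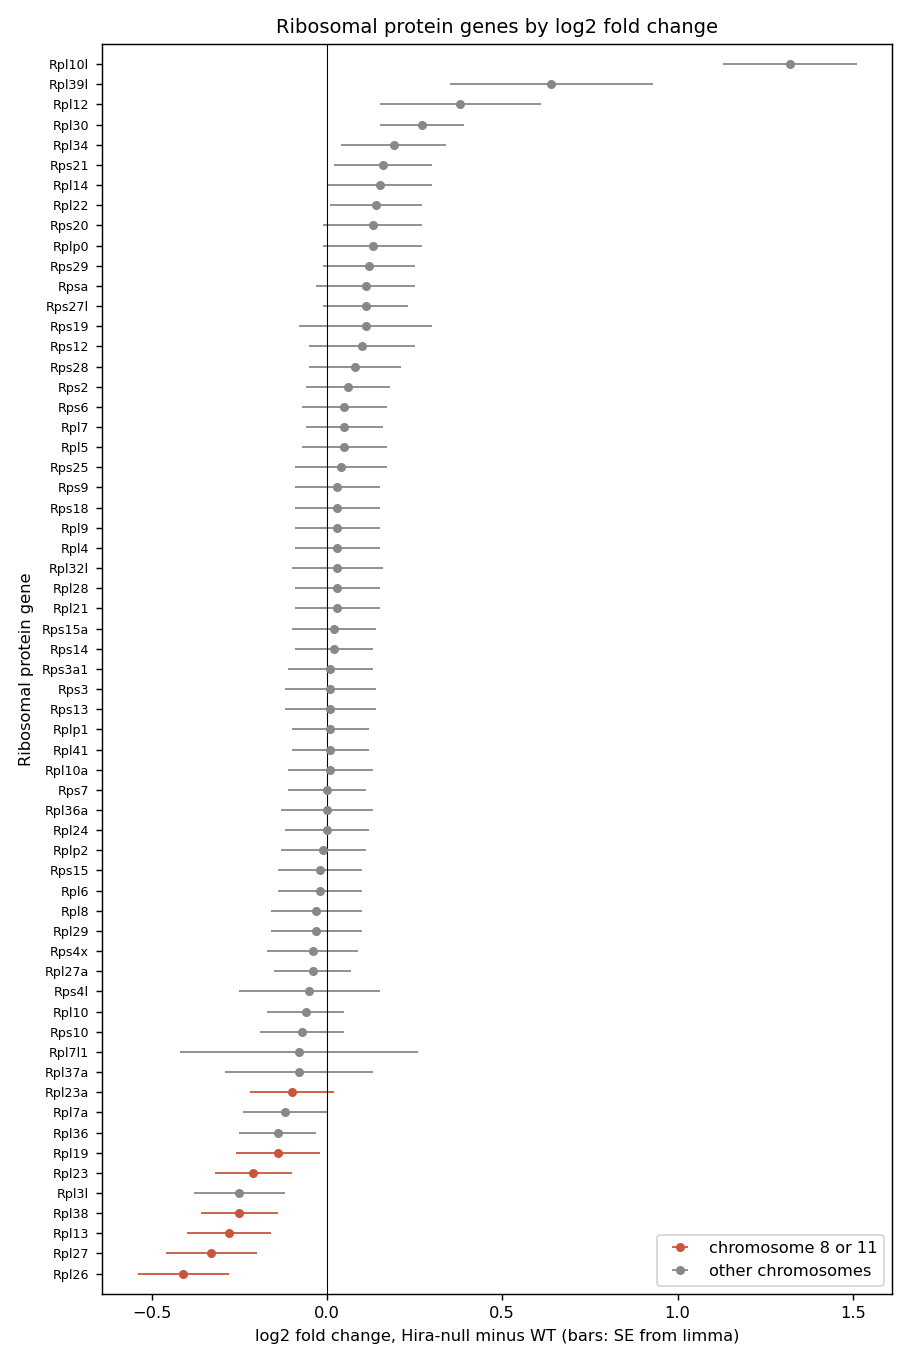
Log2 fold change (Hira-null minus WT, horizontal axis) of the 61 ribosomal protein genes, ordered by size, with bars for the SE from limma over 3 arrays of each line. The 7 genes on chromosomes 8 and 11 (red) lie between -0.41 and -0.10, most other members (grey) lie within 0.2 of 0, and Rpl10l stands at 1.32.

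Promoter sequences of the 6 members on chromosomes 8 and 11 that had an entry are shown first, because the means of these members all lay lower in the Hira-null arrays. Each line gives 40 bases before and 30 bases after the start of transcription, 5′ to 3′ on the gene's strand, from RefSeq on GRCm38.p6. The most upstream annotated start of each gene was used. Capitals mark CCGGAAG, a motif of ETS-family factors, or its reverse complement CTTCCGG.
Rpl26 (chr11:68901526-68901595, forward strand): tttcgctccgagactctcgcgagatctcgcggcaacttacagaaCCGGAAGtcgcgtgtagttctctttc
Rpl38 (chr11:114668540-114668609, forward strand): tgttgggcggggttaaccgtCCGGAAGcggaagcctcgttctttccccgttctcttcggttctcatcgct
Rpl19 (chr11:98026670-98026739, forward strand): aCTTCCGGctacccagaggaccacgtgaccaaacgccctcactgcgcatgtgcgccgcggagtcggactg
Rpl13 (chr8:123102310-123102379, forward strand): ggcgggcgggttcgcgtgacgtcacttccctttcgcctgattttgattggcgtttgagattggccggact
Rpl23 (chr11:97782410-97782479, reverse strand): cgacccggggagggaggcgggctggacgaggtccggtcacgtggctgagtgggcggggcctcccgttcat
Rpl27 (chr11:101442205-101442274, forward strand): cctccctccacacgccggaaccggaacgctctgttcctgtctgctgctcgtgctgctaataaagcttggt
The 300-base promoter (250 bases before to 50 after the start) held CCGGAAG on either strand in 3 of these 6, Rpl19, Rpl26 and Rpl38. It held the motif in 15 of 43 members on other chromosomes (34.9%), and in 9.14% of all 27025 promoters. The YY1 motif AAGATGGC, searched on both strands with overlap between motifs allowed, was found in 0 of these 6, in 3 of 43 other members (Rpl22, Rpl7l1 and Rps15a) and in 2.87% of all promoters. A run of at least 6 C or T bases was sought between 10 bases before and 20 after the start. It was found in 1 of the 6 (Rpl38, with a run of 10), in 23 of the 43 others (53.5%) and in 28.5% of all promoters. Only bases inside the window counted, so runs that cross its edge were cut, as in Rpl13 and Rpl23. The printed line of Rpl26 holds a run just past the window. The counts depend on the window and the start chosen, and do not show that a member lacks such a run. These matches describe the letters in the windows and were not tied to the expression values by any test. In all, 49 of the 61 members had a promoter entry.

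The members on chromosomes 8 and 11 all encode large-subunit proteins, and they span a range of positions in the 60S subunit. The values are those of each gene's probe set with the highest mean. For Rpl13, Rpl38, Rpl23 and Rpl19 its identifier lay among those of another chromosome, as described below. Rpl26, which lies near the exit of the peptide tunnel and is known to bind the p53 transcript, had WT values of 8.61, 8.64 and 8.61 against Hira-null values of 8.17, 8.09 and 8.36. Every Hira-null array was lower than every WT array, and Hira-null 3 was the closest to WT. The difference was -0.41 (SE 0.13, limma adjusted p = 0.358), the lowest value of the family.

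Rpl27, whose human counterpart is among the genes mutated in Diamond-Blackfan anaemia, had WT values of 11.25, 11.40 and 11.51 against Hira-null values of 11.11, 11.06 and 11.01, without overlap (-0.33, SE 0.13, limma adjusted p = 0.445). Rpl13, the only member on chromosome 8 and a structural protein of the 60S subunit, had WT values of 11.83, 11.66 and 11.76 against Hira-null values of 11.43, 11.43 and 11.56. Its groups did not overlap either, and the difference was -0.28 (SE 0.12, limma adjusted p = 0.503).

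Rpl38, known for its part in the translation of Hox transcripts in the mouse embryo, had WT values of 11.47, 11.35 and 11.41 against Hira-null values of 11.12, 11.16 and 11.20. Both sets of arrays were narrow (SD 0.06 in WT and 0.04 in Hira-null, n = 3) and lay apart, with a difference of -0.25 (SE 0.11, limma adjusted p = 0.517). Rpl23, which can bind Mdm2, had WT values of 11.85, 11.92 and 11.85 against Hira-null values of 11.64, 11.63 and 11.73, again without overlap (-0.21, SE 0.11, limma adjusted p = 0.612). Its other probe set, with an identifier among those of chromosome 11, had a mean of 8.52 and a log2 fold change of -0.22.

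For the remaining members on chromosome 11 the lines met at array Hira-null 3. Rpl19, a 60S protein widely used as a reference transcript, had WT values of 12.03, 11.97 and 12.01 against Hira-null values of 11.80, 11.83 and 11.97. Its highest Hira-null array equalled its lowest WT array, and the log2 fold change was -0.14 (SE 0.12, limma adjusted p = 0.776). Rpl23a, which contacts the signal recognition particle at the tunnel exit, had WT values of 11.48, 11.62 and 11.54 against Hira-null values of 11.37, 11.38 and 11.58. Hira-null 3 lay inside the WT range, and the log2 fold change was -0.10 (SE 0.12, limma adjusted p = 0.867).

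**Figure D2:**
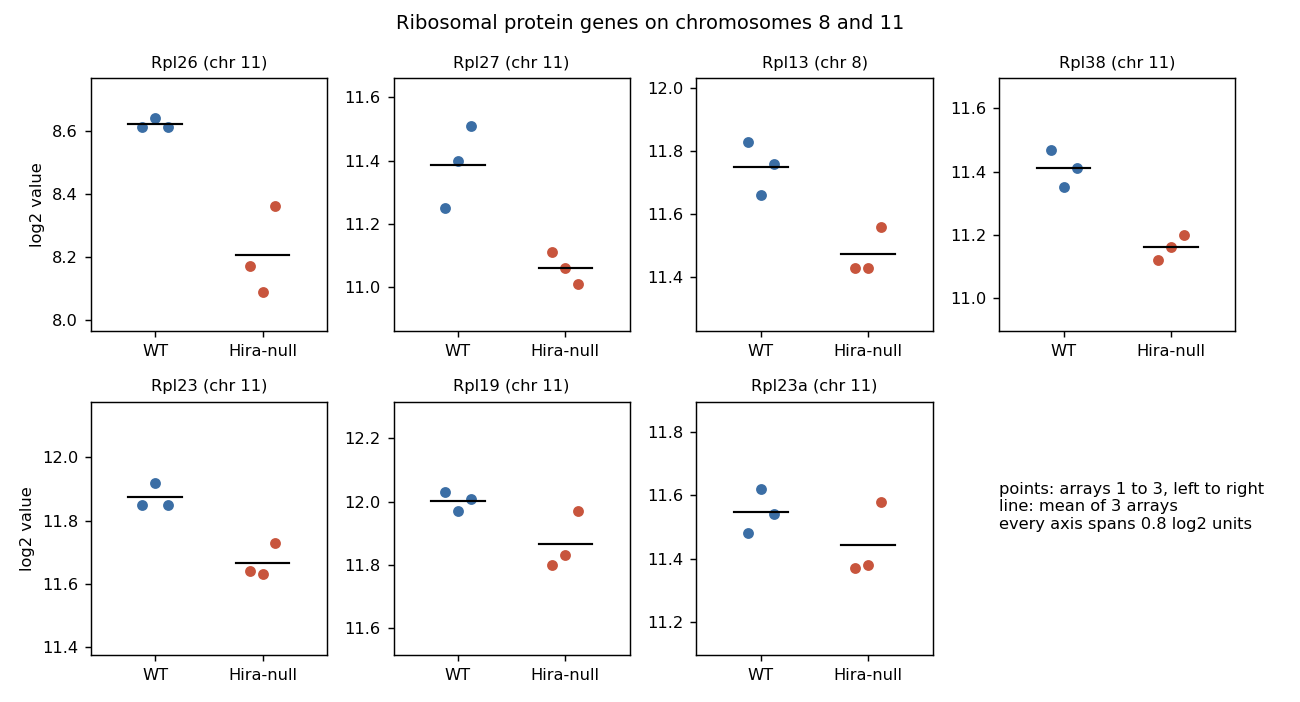
Deposited log2 values of the 7 ribosomal protein genes on chromosomes 8 and 11 in each array (points, arrays 1 to 3 from left to right) with the mean of 3 arrays (line), on vertical axes of equal span. Rpl26, Rpl27, Rpl13, Rpl38 and Rpl23 have no overlap between WT (blue) and Hira-null (red) arrays, while for Rpl19 and Rpl23a array Hira-null 3 reaches the WT values.

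The lower values on chromosomes 8 and 11 were shared with other genes of those chromosomes. Of the 7 members, 5 had lower Hira-null arrays without overlap, and so did 34.0% of the 2160 genes on chromosomes 8 and 11. On other chromosomes it was 1 of 54 members and 5.49% of 12991 genes. Higher Hira-null arrays without overlap were found in 0 of the 7 members (1.57% of genes there) and in 2 of the 54 (8.85%). At an unadjusted p under 0.05, 2 of the 7 members were lower (27.7% of genes there) and 0 higher (0.556%), and of the 54 members 0 were lower (2.73%) and 1 was higher (4.77%). No test was made of the contrast between both sets of members, since it was chosen with the results known. The 2153 genes of chromosomes 8 and 11 that are not members had a median log2 fold change of -0.25, the same as the members, with -0.27 over 808 genes on chromosome 8 and -0.24 over 1345 on chromosome 11. The 12937 non-member genes on other chromosomes had a median of 0.02.

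The same order held array by array. The median deviation of the 7 members from each gene's mean over the 6 arrays was 0.09, 0.12 and 0.12 in WT 1 to 3 and -0.13, -0.14 and -0.05 in Hira-null 1 to 3. For the 54 other members it was -0.04, -0.01 and 0.03 for the WT and 0.00, -0.02 and 0.07 for the Hira-null arrays. All WT arrays lay above all Hira-null arrays for the 7, and the lines overlapped for the 54. The difference between both sets was 0.14, 0.13 and 0.10 for the WT and -0.13, -0.12 and -0.12 for the Hira-null arrays, so taking it within each array brought Hira-null 3 level with the others. Non-member genes of chromosomes 8 and 11 stood at 0.13, 0.11 and 0.10 for the WT and at -0.14, -0.10 and -0.11 for the Hira-null arrays. Whether gene dosage had a part in these values was not tested.

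**Figure D3:**
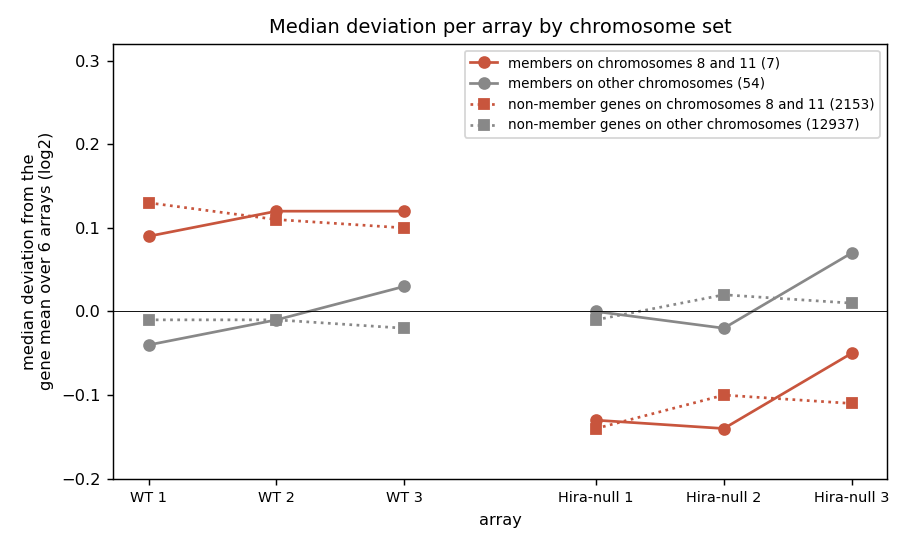
Median deviation from the gene mean over 6 arrays (log2, vertical axis) in each array for members (circles, solid lines) and non-member genes (squares, dotted lines), on chromosomes 8 and 11 (red) and elsewhere (grey). Members on chromosomes 8 and 11 lie at 0.09 to 0.12 in WT and at -0.14 to -0.05 in Hira-null arrays, while members on other chromosomes lie between -0.04 and 0.07.

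The size of the difference varied with the signal range of the probe sets. The mean value of the members ran from 4.12 (Rpl3l) to 12.48 (Rplp1), with a median of 11.29, and 38 of the 61 had a mean of at least 11. Among non-member genes of chromosomes 8 and 11 with a mean of at least 8, the median log2 fold change was -0.41 over 467 genes (quartiles -0.56 and -0.25). Among those with a mean of at least 11 it was -0.22 over 13 genes (quartiles -0.31 and -0.16). Of these 13, 8 were lower without overlap (61.5%), against 57.6% of the 467 and 34.0% of all genes on these chromosomes. The 6 members on these chromosomes with a mean of at least 11 had a median of -0.23, from -0.33 for Rpl27 to -0.10 for Rpl23a. The 32 members elsewhere with such a mean had a median of 0.02 and a range of -0.14 (Rpl36) to 0.13 (Rplp0 and Rps20), beside 0.02 over 55 non-member genes.

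Ribosomal protein genes have many processed pseudogenes, and several probe sets can carry the symbol of 1 gene. Of the 61 members, 39 had 2 or more probe sets, up to 14 for Rps12, and 19 probe sets shared all 6 values with another. Within a gene the log2 fold changes differed little, by a median of 0.03 and at most 0.09 (Rps15). Identifiers on this array mostly follow genome order. A probe set was therefore placed on a chromosome where the 3 nearest 1-symbol identifiers on each side named the same one, which placed 187 of the 217. Of these, 58 lay among identifiers of the named gene's own chromosome.

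The values varied with the chromosome of the named gene more than with that of the identifier. The 28 probe sets of genes on chromosomes 8 and 11 whose identifiers lay elsewhere came from 6 genes. All were lower, with a median of -0.15 (-0.34 to -0.04), and 15 had no overlap. The 9 whose identifiers also lay on chromosome 8 or 11 came from 7 genes. They had a median of -0.28 (-0.41 to -0.10), and 7 had no overlap. Both counts stand beside 34.0% of all genes on chromosomes 8 and 11 that were lower without overlap. The 11 probe sets of genes on other chromosomes with identifiers on chromosome 8 or 11 had a median of 0.04 (-0.14 to 0.13), and 3 of them were lower. Probe sets of 1 gene are not independent. Rpl13 had 9, of which 8 were placed on chromosomes other than its own, at -0.32 to -0.28 and all 9 without overlap. Rpl23a had 13, with 10 placed elsewhere, at -0.12 to -0.04 and none without overlap. Probe sequences were not analysed here, and near-identical copies could share a signal.

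**Figure D4:**
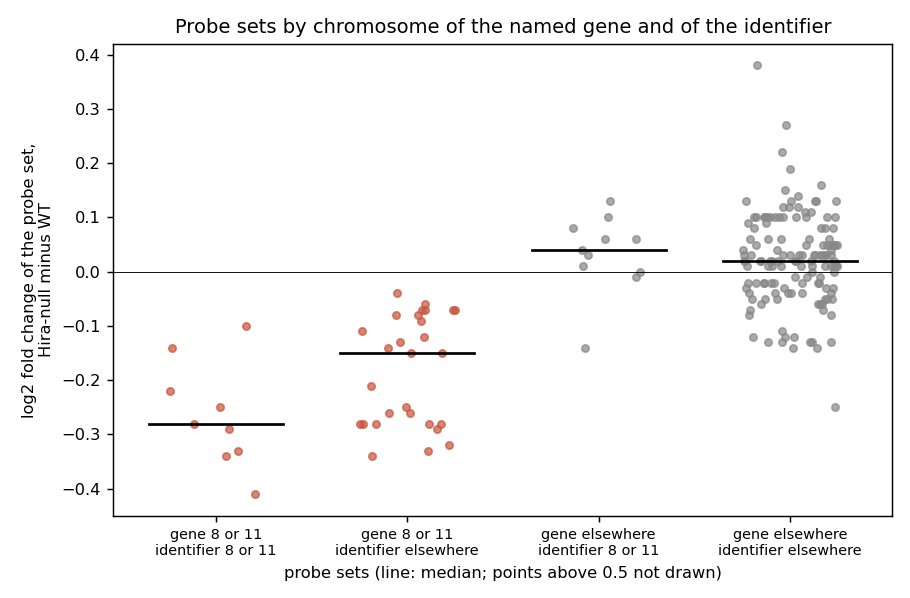
Log2 fold change (vertical axis) of the 187 placed member probe sets, grouped by the chromosome of the named gene and of the identifier's neighbours, with the median of each group as a line; the 2 points above 0.5 are not drawn. Probe sets of genes on chromosomes 8 and 11 have medians of -0.28 and -0.15, and those of genes elsewhere 0.04 and 0.02.

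Rpl10l was the member with the largest difference. It is an intronless copy of the X-linked Rpl10, is transcribed chiefly in the testis, and stands in for Rpl10 during male meiosis, when the X chromosome is silenced. Its probe set, on chromosome 12, had WT values of 7.17, 7.68 and 7.69 against Hira-null values of 8.96, 8.62 and 8.91. Every Hira-null array lay above every WT array. The log2 fold change between the means was 1.32 (SE 0.19), or 2.49-fold, with an unadjusted p of 0.000212 and a limma adjusted p of 0.204. Across the alternatives tried it lay between 1.10 and 1.42, with adjusted p between 0.112 and 0.604. Rpl10 itself had WT values of 12.10, 12.01 and 12.09 against Hira-null values of 12.02, 12.03 and 11.98, overlapping, at -0.06 (SE 0.11). Their promoters, in the window used above and with no CCGGAAG, are shown because the genes encode near-identical proteins but have different start regions.
Rpl10 (chrX:74270776-74270845, forward strand): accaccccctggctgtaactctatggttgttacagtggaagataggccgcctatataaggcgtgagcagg
Rpl10l (chr12:66284372-66284441, reverse strand): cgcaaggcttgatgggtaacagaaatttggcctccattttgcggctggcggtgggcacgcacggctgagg

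Most germ cell markers listed also had higher means in the Hira-null arrays. All 6 passed the filter, and their summed log2 value was 39.31 to 43.75 in the WT and 43.66 to 48.27 in the Hira-null arrays. Mael, of the piRNA pathway, had 1.50 (SE 0.33, limma adjusted p = 0.234), Rnf17 had 0.89 (adjusted p = 0.233) and Tex14, needed for germ cell bridges, had -0.70 (adjusted p = 0.222), each without overlap between the lines. Of all genes, 9.55% were lower and 7.8% higher without overlap. The lines overlapped for the synaptonemal complex protein Sycp3 (1.27, SE 0.63), Dazl (0.58) and Ddx4 (0.53), with limma adjusted p of 0.563, 0.54 and 0.508. Their part in the Rpl10l value was not tested. In bulk samples, fewer cells of a type and less RNA per cell cannot be told apart.

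The other duplicates did not follow 1 direction. Rpl39l, a copy of Rpl39 that is abundant in the testis, had WT values of 6.27, 6.81 and 6.49 against Hira-null values of 7.74, 7.11 and 6.65. Hira-null 3 lay within the WT range, and the log2 fold change was 0.64 (SE 0.29, limma adjusted p = 0.51). Leaving out 1 array at a time it ran from 0.36 without Hira-null 1 to 0.90 without Hira-null 3. Rpl3l, the muscle form of Rpl3, had WT values of 4.40, 4.09 and 4.24 against Hira-null values of 4.09, 3.94 and 3.94, at -0.25 (SE 0.13). Its lines met at 4.09, and all its values lay near the filter value of 3.78.

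Rpl7l1, a paralog of Rpl7 that acts in 60S assembly, had its spread in the Hira-null line. It had WT values of 9.34, 9.90 and 9.64 against Hira-null values of 10.09, 9.77 and 8.78, at -0.08 (SE 0.34), and at 0.30 without Hira-null 3. Rps4l, an autosomal copy of the X-linked Rps4x, had WT values of 9.67, 9.85 and 9.96 against Hira-null values of 10.04, 9.91 and 9.38, at -0.05, and at 0.15 without Hira-null 3. Rps27l, a paralog of Rps27 and a known p53 target, had 0.11, and Rpl32l, whose symbol has the same form, had 0.03. The parents that were measured lay close to 0, with 0.05 for Rpl7, -0.04 for Rps4x, -0.06 for Rpl10, 0.14 for Rpl22 and 0.00 for Rpl36a. The duplicates of Rpl22 and Rpl36a, Rpl22l1 and Rpl36al, were not among the members.

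**Figure D5:**
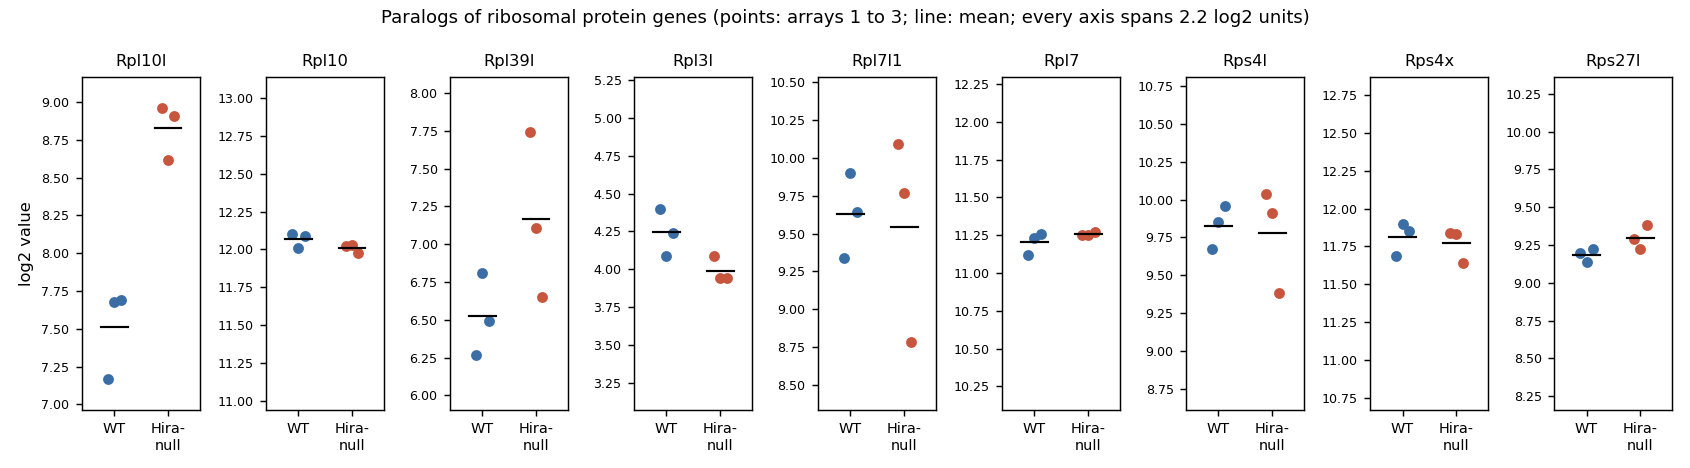
Deposited log2 values in each array (points, arrays 1 to 3 from left to right) and means of 3 arrays (lines), on vertical axes of equal span. Shown are the duplicates Rpl10l, Rpl39l, Rpl3l, Rpl7l1, Rps4l and Rps27l and the parents Rpl10, Rpl7 and Rps4x. The Hira-null arrays (red) of Rpl10l, at 8.62 to 8.96, lie above its WT arrays (blue) at 7.17 to 7.69, and in Rpl7l1 and Rps4l array Hira-null 3 is the lowest.

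Outside chromosomes 8 and 11 and apart from Rpl10l, the groups were separate for Rpl30 and Rpl36 alone. Rpl30, a 60S protein that in yeast represses splicing of its own transcript, had WT values of 7.72, 7.91 and 7.89 against Hira-null values of 8.12, 8.05 and 8.15, at 0.27 (SE 0.12, limma adjusted p = 0.513). Rpl36, a 60S protein on chromosome 17, had WT values of 11.30, 11.27 and 11.26 against Hira-null values of 11.13, 11.10 and 11.19, at -0.14 (SE 0.11, limma adjusted p = 0.764). All 9 probe sets of Rpl36, most of them placed on other chromosomes, were lower without overlap, at -0.14 to -0.12. The separation of Rpl36 was as small as the overlapping difference of Rpl19.

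The stalk of the large subunit recruits the translational GTPases. Its scaffold Rplp0 had WT values of 11.70, 11.85 and 11.88 against Hira-null values of 11.79, 11.88 and 12.15, at 0.13. Rplp1 had WT values of 12.46, 12.52 and 12.44 against Hira-null values of 12.49, 12.50 and 12.46, at 0.01. Rplp2 had -0.01, from a single probe set with a mean of 5.9, nearer to the array medians than the 12.48 of Rplp1. Rpl5, which forms the 5S ribonucleoprotein that restrains Mdm2, had WT values of 11.76, 11.68 and 11.72 against Hira-null values of 11.69, 11.74 and 11.87, at 0.05. These members overlapped in every case.

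The spread between arrays of a line was small for the family, with a median SD of 0.09 against 0.20 over other genes, and a median SE of 0.12 against 0.17. Hira-null 3 was the single highest array in 24 of 61 members (39.3%) and the single lowest in 13 (21.3%), against 24.5% and 26.0% of other genes. WT 1 was the single lowest in 14 (23.0%, against 15.2% of other genes). Rplp0, Rpsa (11.80, 11.84 and 12.14 in Hira-null arrays) and Rps20 (11.47, 11.42 and 11.77) had Hira-null 3 highest, whereas Rpl37a (10.54, 10.53 and 9.83) had it lowest. Smaller groups separate more often: without Hira-null 3, 11 members were lower and 7 higher with no overlap, against 15.4% and 13.6% of all genes. Without both Hira-null 3 and WT 1, the counts were 17 and 9, against 20.7% and 20.3% of all genes.

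Genes that act with the ribosomal proteins were grouped in lists, and 0 list members passed limma at an adjusted p of 0.05. Mitochondrial ribosomal proteins, which make up the separate ribosome of that organelle, had a median of -0.10 over 77 genes, with 52 lower and 25 higher, and 12 lower and 0 higher at an unadjusted p under 0.05, against 6.29% and 4.17% of all genes. Of these 12, 9 lay on chromosomes 8 and 11, where 27.7% of all genes were lower by that measure. The 13 on chromosomes 8 and 11 were all lower, from -0.67 (Mrpl22) to -0.32 (Mrpl12), with a median of -0.45, against -0.04 over the 64 elsewhere. Mrpl35, on chromosome 6, had the lowest value of the list, with 7.58, 7.95 and 8.08 in the WT arrays against 7.04, 6.97 and 7.16 in the others (-0.81, SE 0.16, limma adjusted p = 0.233).

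Ribosome assembly factors, which process ribosomal RNA and build the subunits in the nucleolus, had a median of -0.08 over 108 genes. At an unadjusted p under 0.05, 10 were lower and 0 higher, against 6.29% and 4.17% of all genes. All 10 lay on chromosomes 8 and 11, where 27.7% of all genes were lower by that measure. The 18 on chromosomes 8 and 11 were all lower, from -0.91 for Urb2 to -0.16 for Npm1, the abundant nucleolar protein nucleophosmin, with a median of -0.59 and 11 without overlap, against 34.0% of all genes there. Of the 90 elsewhere, with a median of -0.04, 0 were lower without overlap, against 5.49% of genes. Named by smallest p were Nol11 at -0.62, Aatf at -0.63 and Nle1 at -0.61, all on chromosome 11, and the 40S endonuclease Nob1 at -0.57 on chromosome 8.

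Translation factors were listed by symbols of the Eif and Eef families, which also take in genes with other roles, such as Eif4a3 below. The list had a median of -0.03 over 55 genes, and its 4 genes on chromosomes 8 and 11 had a median of -0.36. At an unadjusted p under 0.05, 2 were lower and 1 higher, against 6.29% and 4.17% of all genes. The 2 lower ones lay on chromosomes 8 and 11, where 27.7% of all genes were lower by that measure. Eif4g3, a scaffold of cap-dependent initiation on chromosome 4, had WT values of 6.91, 6.79 and 6.75 against Hira-null values of 7.48, 7.50 and 7.53. Its lines were far apart for their spread (0.69, SE 0.12, limma adjusted p = 0.22). Eif4a3, a core protein of the exon junction complex on chromosome 11, had -0.77, Eif4enif1, on the same chromosome, -0.52 and Eif4g2 0.28.

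RNA polymerase I and its factors, which transcribe ribosomal RNA, had a median of -0.11 over 15 genes. At an unadjusted p under 0.05, 1 was lower and 0 higher, against 6.29% and 4.17% of all genes. The catalytic subunit Polr1a, on chromosome 6, had WT values of 8.38, 8.72 and 8.83 against Hira-null values of 8.20, 8.03 and 7.61 (-0.70, SE 0.20, limma adjusted p = 0.34), while Taf1c had -0.36, Polr1c -0.29 and Ttf1 0.24. Among 10 regulators of ribosomal protein production the median was -0.06, with 2 lower and 0 higher by the same measure, against the same shares. The 2 lower ones lay on chromosomes 8 and 11, where 27.7% of all genes were lower by it. Larp1, which binds TOP transcripts, had -0.52 and Rptor, the scaffold of mTORC1, -0.58, both on chromosome 11, and Eif4ebp2 had 0.33 and Rps6kb2 0.29. The ends of this list were Eif4ebp2 and Mycn, a transcription factor that drives ribosome production, on chromosome 12 at -1.12 (limma adjusted p = 0.708). Fau, which encodes a 40S protein fused to a ubiquitin-like one and falls outside the symbol rule, had -0.01.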

How the data were processed

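Total RNA of 6 ES cell samples was measured on 1 array each. The authors deposited log2 values per probe set for 35557 probe sets, made with GCRMA (background correction and normalization between arrays) per the submitters' processing notes. Its version, the genome build and the probe annotation were not given in the sources used here. That the scale is log2 follows from the range of values (1.14 to 14.03). The values were used as deposited, and normalization between arrays hides any shift common to most genes. Precision is limited by the number of arrays.

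Of the probe sets, 21789 had 1 symbol, 1621 several and 12147 were unnamed; 21698 were matched through Entrez identifiers to the gene table of GRCm38.p6. The filter required values above 3.78, the 30th percentile of the table, in at least 3 of 6 arrays, and left 25142 probe sets, of which those with 1 symbol stood for 15199 genes. Where a gene had several probe sets, the one with the highest mean stood for it. The 6 arrays entered a two-sided limma 3.58.1 fit (R 4.3.3; lmFit, eBayes) of Hira-null minus WT with no covariate. Benjamini-Hochberg adjustment ran over all retained probe sets at a threshold of 0.05, and the fit was tested on simulated data.

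The members and gene lists were chosen with earlier results of these data known. Named genes are the members on chromosomes 8 and 11, duplicates with their parents, other members without overlap, stalk and 5S proteins, up to 4 genes of each list by smallest p, and the ends of ranges; Rpsa, Rps20 and Rpl37a were named after their values were seen. Chromosome 8 and 11 medians are descriptions without a test. Alternatives tried were other filters, quantile normalization, median centring, centring on genes outside chromosomes 8 and 11, eBayes with trend and robust settings, arrayWeights, the replicate number as a block, other probe sets per gene, and leaving out arrays.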

Additional observations from a re-analysis of the deposited data

How the results depend on the processing

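Under every alternative tried, 0 ribosomal protein genes were called by limma at an adjusted p of 0.05, the median of the members on chromosomes 8 and 11 stayed between -0.30 and -0.22, and its difference from the other members between -0.30 and -0.23. At an unadjusted p under 0.05, where 2 members were lower and 1 higher, the counts lower were 4 with no filter, with centring on genes outside chromosomes 8 and 11 and with arrayWeights, 5 with an eBayes trend and with trend and robust settings, and 1 with median centring. The counts higher were 2 with no filter, with arrayWeights and without both WT 1 and Hira-null 3. Centring outside chromosomes 8 and 11 gave medians of -0.30 for the members there and -0.02 for the others, so the sign of the latter turned, with 10 members lower without overlap, and Rplp1 at -0.04. Quantile normalization gave a difference of -0.26 and Fau at 0.01. Leaving out 1 array at a time gave 1 to 2 members lower and 1 to 2 higher at an unadjusted p under 0.05. The difference ran from -0.30 to -0.23, with 6 to 11 members lower and 3 to 7 higher without overlap. Groups of 2 arrays separate more easily. Without Hira-null 3 alone, 15.4% of all genes were lower and 13.6% higher without overlap. Without both WT 1 and Hira-null 3 the member counts were 17 and 9, against 20.7% and 20.3% of all genes. For the other alternatives, centring included, the share of all genes without overlap was not counted. Values near 0 changed sign in some settings. Rpl7l1 was 0.08 and Rps4l 0.01 with arrayWeights. Without both arrays Rpl7l1 was 0.16, Rps4l 0.07, Fau 0.04, Rplp2 0.02 and Rplp0 -0.03. Leaving out 1 array at a time, Rpl7l1 ran from -0.35 to 0.30, Rps4l from -0.18 to 0.15, Fau from -0.08 to 0.04, Rplp2 from -0.07 to 0.02, Rps4x from -0.10 to 0.02, Rplp1 from -0.01 to 0.03 and Rplp0 from 0.02 to 0.20. The cause of these shifts was not tested. With the replicate number as a block, 1 member was lower at an unadjusted p under 0.05. The labels do not say whether the numbers pair the arrays. Deviations from the line means correlated at -0.342, 0.173 and -0.099 between same-numbered arrays. Between arrays of different numbers they ran from -0.414 (WT 2 with Hira-null 3) to 0.441 (WT 1 with Hira-null 3). With 3 arrays per line, these correlations cannot settle whether arrays were paired. The probe set on the gene's own chromosome, and the recount of members without overlap under each alternative, were added after seeing the data.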

Other observations

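Another 239 probe sets carried several symbols with a ribosomal protein among them, and were not used for any member. Their median log2 fold change was 0.01, from -0.67 to 0.43, and 223 lay within 0.2 of 0. By limma 0 passed an adjusted p of 0.05 (lowest 0.268). An unadjusted p under 0.05 was found for 5, against 6.29% of all genes lower and 4.17% higher. Without overlap between the lines, 6 were lower and 17 higher, against 9.55% and 7.8% of all genes.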
